A study of Mus musculus with 14 samples.

Results

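The genes described here encode the proteins of the cytosolic ribosome in mouse liver and in leukocytes sorted from it. Members were the rows of the deposited gene table whose symbol is Rpl or Rps followed by a number, with or without further letters, together with Rpsa, Rplp0, Rplp1 and Rplp2. Rows of the Rps6k kinases (10 rows) and rows marked as pseudogenes by the ending -ps were dropped. This left 92 of 48794 rows, 54 with large-subunit names and 38 with small-subunit names. The annotation calls 86 of them protein-coding and 6 pseudogenes, namely Rpl37rt, Rpl6l, Rps12l1, Rps3a2, Rps3a3 and Rps4l. Rps19bp1, which binds Rps19 and is no ribosomal protein, came in through its name. Fau and Rack1, which also supply ribosomal proteins, lie outside the naming rule.

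RNA came from the livers of untreated wild-type (WT) mice, and the sources used here give no strain, sex or age. Leukocytes bearing the surface protein CD45 were sorted from needle biopsies into samples of 2500, 5000, 10000 or 20000 cells, with 3 libraries at each number, and 2 libraries were made from bulk liver tissue as the control. The series compared these inputs to see how many sorted biopsy cells a library needs. No label ties the libraries of a group to separate animals, and the p-values cover only the spread among these libraries, which could be technical.

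Libraries held 6723357 to 14496314 counts. The 5 leukocyte markers, led by Ptprc, summed to 40.5 and 47.1 TPM (the length-scaled share of a transcript in its library) in bulk liver and to 7641 to 8618 TPM in sorted cells. The 8 hepatocyte markers, led by Alb, summed to 32799 and 33591 TPM in bulk liver and to 106 to 165 TPM in sorted cells, with none at 0. These 2 sets went with the labels, which does not show the sorted libraries free of other cells. The 5 endothelial markers summed to 71.8 and 66.9 TPM in bulk liver and 83.9 to 112 TPM in sorted cells. The 5 erythroid markers summed to 437 and 616 TPM against 11.8 to 361 TPM. The 5 stellate cell markers summed to 79.0 and 69.6 TPM against 4.34 to 7.70 TPM, and the 5 platelet markers to 3.61 and 3.38 TPM against 5.74 to 39.9 TPM. In bulk tissue, fewer cells of a type and less RNA per cell cannot be told apart.

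Cytosolic ribosomes consist of a large and a small subunit, each built from ribosomal RNA and a fixed set of proteins, so that most of these genes are needed in every cell type. Their mRNAs often begin with a C followed by further pyrimidines, a start that places their translation under control of the kinase mTOR. Many of the genes have intronless copies elsewhere in the genome, and some have a second functional gene, a paralog, whose use differs between tissues.

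Rps27, Rps27rt and Rps27l are shown first, because Rps27l and Rps27 differed most in opposite directions among paralog partners and because the reads of Rps27 and Rps27rt are hard to assign. Rps27 encodes a zinc-binding protein of the small subunit, Rps27l is its paralog and a target of the transcription factor p53, and Rps27rt is an intronless copy. On GRCm38, Rps27 lies at chr3:90212522-90213651 (minus strand), Rps27rt at chr9:114982366-114982739 (minus strand) and Rps27l at chr9:66946086-66949516 (plus strand). Coding bases 1 to 90 of each follow, taken from the reference genome with GENCODE M21 exons, with capitals at the 24 positions where the sequences differ.
Rps27: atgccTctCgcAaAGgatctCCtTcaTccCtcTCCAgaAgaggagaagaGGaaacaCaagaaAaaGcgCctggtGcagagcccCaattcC
Rps27rt: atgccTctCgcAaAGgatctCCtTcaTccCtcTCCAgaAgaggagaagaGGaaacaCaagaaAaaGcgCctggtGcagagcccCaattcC
Rps27l: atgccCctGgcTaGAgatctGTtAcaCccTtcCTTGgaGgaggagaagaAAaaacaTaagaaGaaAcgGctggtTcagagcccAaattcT
Rps27 and Rps27rt were identical over all 252 coding bases. Rps27l matched Rps27 at 76.2% of those bases, with no shared run longer than 11 bases.

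The starts of 6 members are shown because they carry, or lie next to, the pyrimidine run of this gene class. RefSeq promoter entries (GRCm38.p6) were found for 67 of the 92 members. Each line gives 10 bases before the annotated start and 15 bases from it. Capitals mark the run of a C and at least 4 further pyrimidines that holds the start or lies nearest to it. Other such runs in a window stay in lower case.
Rps27 (chr3:90213634-90213658, minus strand): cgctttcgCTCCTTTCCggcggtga
Rps27rt (chr9:114982725-114982749, minus strand): ttatcccttgCTTTCCggcggtgac
Rps27l (chr9:66946076-66946100, plus strand): cctccccgccgCCTCTatcccggaa
Rps27l, another annotated start (chr9:66946403-66946427, plus strand): gggcttcagggtcactaacgggcct
Rps18 (chr17:33955651-33955675, minus strand): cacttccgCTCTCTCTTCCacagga
Rplp2 (chr7:141447641-141447665, plus strand): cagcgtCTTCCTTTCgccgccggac
Rps6 (chr4:86857353-86857377, minus strand): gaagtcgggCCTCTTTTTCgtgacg
The other start of Rps27l has no such run in this window. In the counts that follow a gene held a run or motif if any of its annotated starts did, with a mean of 1.18 starts per member and 1.22 per gene overall. A C and 4 pyrimidines stood exactly at the start of 14 of 67 members (20.9%), against 3.01% of 27025 genes with an entry. Within 10 bases of the start the run was found in 40 of 67 members (59.7%), against 34.4% of all genes. CCGGAAG, searched on both strands over the 250 bases before and 50 bases after the start, occurred in 26 of 67 members (38.8%), in 9.93% of all genes and in 18.7% of the genes with an entry that were also tested in sorted cells against bulk liver. AAGATGGC occurred in 6 of 67 members (8.96%), in 3.19% of all genes and in 4.91% of those tested genes. Among the tested genes the pyrimidine run stood exactly at the start in 3.05% and within 10 bases of it in 37.3%. CACGTG occurred in 8.96% of members, 8.09% of all genes and 11.2% of tested genes. TATAAA, searched 40 to 15 bases before the start, occurred in 1.49%, 2.4% and 1.74%. Members with a run near the start (38 with at least 1 TPM) had a median log2 fold of 1.41 in mean TPM of sorted cells over bulk liver, and the 27 without had 1.34. These values lie close together.

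In sorted leukocytes the ribosomal protein genes took up a larger share of the library than in bulk liver. Their summed TPM was 1.49% and 1.46% of the total in the 2 bulk libraries and 3.75% to 4.88% (median 4.18%) in the 12 sorted ones. Their summed counts were 0.316% and 0.310% of the total in bulk liver and 0.560% to 0.732% (median 0.632%) in sorted cells. In both units each sorted library lay above both bulk libraries.

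**Figure D1:**
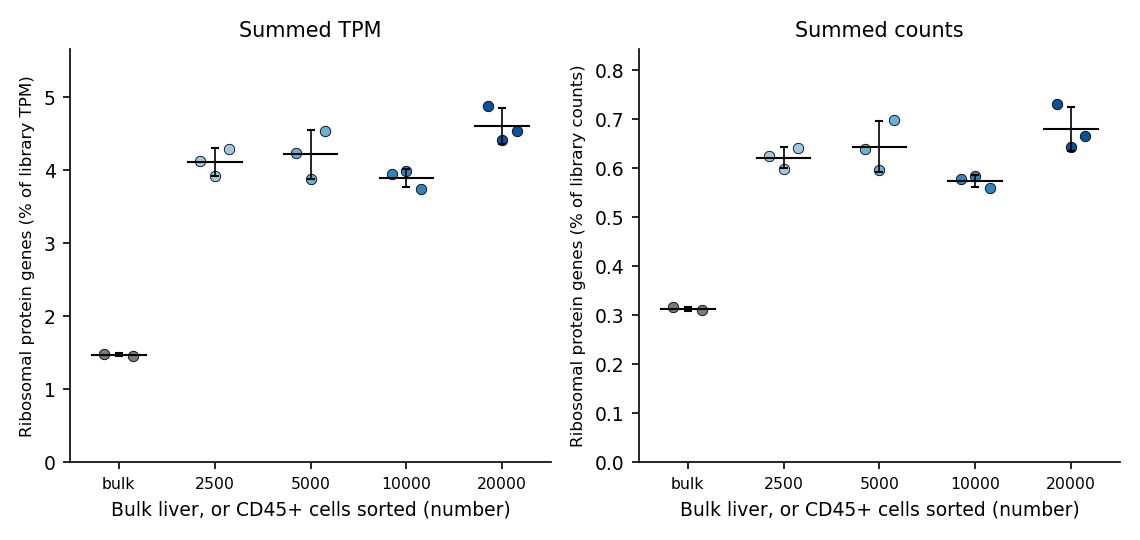
Share of each library taken by the 92 ribosomal protein genes, in percent of TPM (left) and percent of counts (right), for bulk liver and for CD45+ cells sorted at 4 numbers. Points are libraries, lines are means and bars are SD (n = 2 bulk, n = 3 per sorted group); the bulk libraries sit at 1.49% and 1.46% of TPM, and the sorted ones between 3.75% and 4.88%.

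Whether the members rose more than other genes differed between the measures. With TMM scaling, which sets the bulk of genes level between libraries, the edgeR quasi-likelihood test (Benjamini-Hochberg adjusted p below 0.05) called 16 of 86 tested members higher in sorted cells and 35 lower, while 35 did not pass. Over all 16294 genes tested it called 41.8% higher and 38.5% lower. The median log2 fold change was -0.20 for members and 0.17 for all genes. With library totals in place of TMM the all-gene median moved to 1.37, and the members' median was 1.01, with 74 members higher and 4 lower (65.9% and 22.4% of all genes). In the TPM, tested with limma on log2(TPM + 1), 82 of 90 members were higher and 3 lower (67.2% and 15.7% of 17216 genes), and the medians were 1.34 for members and 1.20 for all genes. The members' median was thus below that of all genes in the counts and above it in the TPM. The change of scaling moved members and all genes by about the same amount, so the 2 scalings of the counts are a single observation on this point.

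A smaller set was called in the same direction in all 3 measures. In all, 16 members were higher in sorted cells in TMM-scaled counts, in counts by library total and in TPM, among them Rpl3, Rpl3l, Rpl5, Rpl10a, Rpl12, Rpl13, Rpl14, Rpl32, Rps9, Rps13, Rps19 and Rps27. These 16 of 86 were a smaller share than the 43.2% of 15054 genes tested in all 3 measures that were called higher in each. They were the same 16 that TMM alone called higher. Of them, Rpl3l, Rpl12 and Rps27 passed the filter on low counts only through the sorted libraries, where they are high. Their calls in counts are therefore no support for a rise. Library totals raised the fold of each tested member, so the 2 scalings of the counts are not separate observations here. Rps27l, Rps4l and Rpl36al were lower in all 3, as were 17% of all genes. A further 27 members were lower with TMM and higher in the other 2 measures, as were 8.81% of all genes. Without overlap between the groups, 81 of 90 members had every sorted library above both bulk libraries in TPM, as did 63% of all genes tested, and 2 had every sorted library below, as did 14.9%. In TMM-scaled CPM (counts scaled to library size) 16 of 86 members lay wholly above (40.6% of all genes) and 28 wholly below (37.7%).

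**Figure D2:**
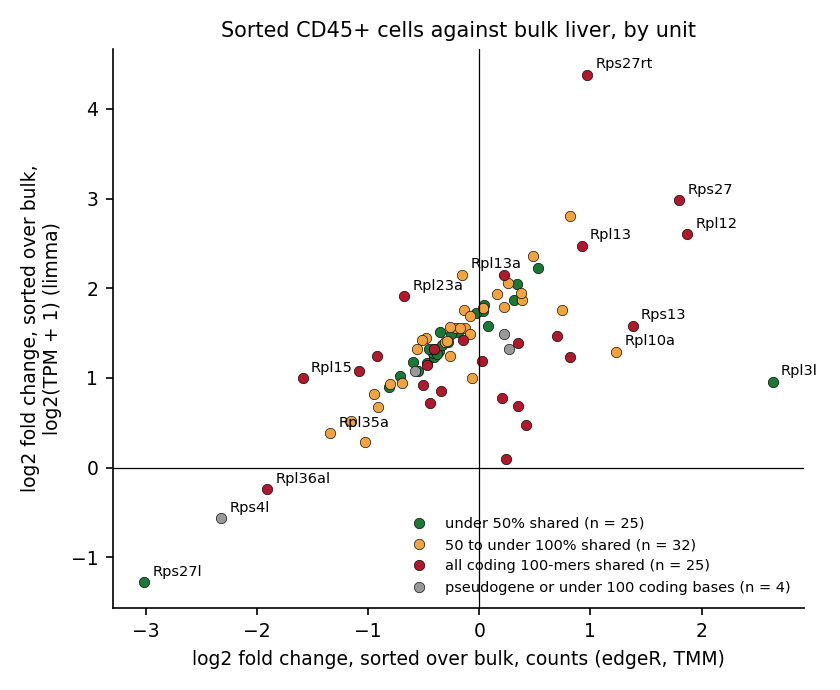
Each point is a ribosomal protein gene tested in both units, placed by its log2 fold change of sorted cells over bulk liver in counts (edgeR with TMM, x axis) and in log2(TPM + 1) (limma, y axis), and coloured by the share of its coding 100-base words found in other genes. Most points lie above 0 on the y axis and on both sides of 0 on the x axis; Rps27l, Rps4l and Rpl36al lie below 0 on both.

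Among large-subunit members, 50 were tested in counts, of which TMM scaling called 11 higher and 20 lower (median log2 fold change -0.25). In TPM 48 of 52 were higher and 1 lower, and their median stood at 1.27. Rpl13 went from 249 and 235 TPM in bulk liver to 1208, 1321 and 1520 TPM (lowest, median, highest) in sorted cells. Its log2 fold change was 0.92 (SE 0.16, edgeR adjusted p 3.37e-05) in counts and 2.48 (SE 0.075, limma adjusted p 1.16e-12) in TPM. Rpl32 went from 280 and 270 TPM to 1150, 1324 and 1481 TPM. For both genes every sorted library was above both bulk libraries.

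Rpl13a, which also forms part of an interferon-responsive complex that silences translation, stood at 266 and 293 TPM in bulk liver and at 1160, 1236 and 1361 TPM in sorted cells. In TPM it rose by 2.15 on the log2 scale (limma adjusted p 3.86e-13), whereas in TMM-scaled counts its fold change was -0.15 (SE 0.20, edgeR adjusted p 0.49). The counts behind that value were few, at 3.29 and 4.23 CPM by library total in bulk liver and 6.96 to 8.92 CPM in sorted cells. Rpl12, which sits at the base of the stalk, was the gene with the second highest fold in counts, at 1.87 (SE 0.30, edgeR adjusted p 1.2e-05). It was scarce, with 3.79 and 1.90 TPM in bulk liver and 12.5, 20.7 and 33.9 TPM in sorted cells. With 6 and 7 counts in the bulk libraries, Rpl12 passed the filter on low counts only through the sorted libraries. Its p in counts is therefore no support for a rise. Rpl10a, of the mobile L1 stalk, stood at 69.3 and 67.5 TPM against 140, 169 and 193 TPM, a log2 fold change of 1.23 in counts and 1.29 in TPM.

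At the other end, Rpl15 and Rpl35a fell in TMM-scaled counts and rose in TPM. Rpl15 stood at 22.0 and 22.4 CPM by library total in bulk liver and at 13.4, 16.8 and 21.3 CPM in sorted cells, so that the groups did not overlap. Its TPM were 161 and 133.3 in bulk liver and 249, 294 and 339 in sorted cells, in the opposite order and again without overlap. The log2 fold change was -1.59 (SE 0.16) in counts and 1.00 (SE 0.084) in TPM, with adjusted p of 2.59e-08 in edgeR and 7.01e-08 in limma. Rpl35a, mutated in some families with Diamond-Blackfan anaemia, gave -1.34 in counts and 0.39 in TPM. Rpl7a gave -1.15 in counts and 0.52 in TPM. By library total the fold changes of Rpl35a and Rpl7a were -0.14 and 0.05 and did not pass (edgeR adjusted p 0.313 and 0.772).

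Among small-subunit members 36 were tested in counts, with 5 higher and 15 lower and a median of -0.08. In TPM 34 of 38 were higher and 2 lower, with a median of 1.41. Rps27 was the most abundant member in sorted cells, at 1704, 2079 and 2907 TPM, and ranked 16 in bulk liver at 294.8 and 247 TPM. It rested on few counts, 7 and 4 in the bulk libraries and 35 to 87 in the sorted ones. Rps27 thus passed the filter on low counts only through the sorted libraries, so the p of its counts is no support for a rise. Its log2 fold change was 1.80 (SE 0.44, edgeR adjusted p 0.00096) in counts and 2.99 (SE 0.10, limma adjusted p 4.2e-12) in TPM. Rps27rt, with the identical coding sequence, went from 12.95 and 13.7 TPM to 222, 281 and 489 TPM. Its 4.38 in TPM was the highest fold change of any member there, while in counts its 0.97 (SE 0.73) did not pass (edgeR adjusted p 0.228).

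Rps19, the gene most often mutated in Diamond-Blackfan anaemia, was the second most abundant member in sorted cells, at 1762, 2008 and 2562 TPM against 273 and 312 TPM in bulk liver. It had 47.3 and 49.7 CPM by library total in bulk liver and 173 to 249 CPM in sorted cells, so its rise is seen in both units. The log2 fold change was 0.82 (SE 0.092, edgeR adjusted p 8.89e-08) in counts and 2.80 in TPM. Rps13 went from 200 and 185 TPM to 500, 568 and 695 TPM, with 1.38 (SE 0.24, edgeR adjusted p 3.51e-05) in counts.

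The stalk proteins Rplp0, Rplp1 and Rplp2 draw elongation factors to the ribosome. Rplp0 and Rplp1 were called lower with TMM, at -0.38 and -0.71, and Rplp2 at -0.25 did not pass (edgeR adjusted p 7.45e-06, 5.79e-07 and 0.153). In TPM all 3 were higher, at 1.27, 1.02 and 1.49, and by library total all 3 were higher as well. Rplp0 stood at 305 and 316 TPM in bulk liver and at 706, 744 and 871 TPM in sorted cells.

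Ratios within a library do not depend on its scaling. The sum over small-subunit members divided by that over large-subunit members was 0.731 and 0.729 in TPM in bulk liver and 0.768 to 0.828 in sorted cells. In counts the order was reversed, with 0.862 and 0.829 in bulk liver and 0.774 to 0.821 in sorted cells. Rps27l alone had a mean of 202 CPM by library total in bulk liver, the highest of the small-subunit members there. In sorted cells it had 58.1 CPM. Its part in the reversed order was not tested, so the order is not shown for the subunits as a whole. Members summed to 7.93 and 7.54 times the TPM of 10 translation elongation factors in bulk liver and to 11.04 to 13.7 times in sorted cells. Against 78 mitochondrial ribosomal protein genes the ratio was 3.69 and 3.52 in bulk liver and 6.78 to 8.76 in sorted cells. Against 42 ribosome biogenesis genes it went the other way, from 26.6 and 25.8 in bulk liver to 17.3 to 24.9 in sorted cells. In counts these 3 ratios kept their order between the groups, at 1.76 and 1.71 against 2.30 to 2.76 for elongation factors, 1.02 and 0.982 against 1.86 to 2.33 for the mitochondrial set, and 3.27 and 3.30 against 1.98 to 2.66 for biogenesis. Against 29 translation initiation factors the groups were apart in TPM, at 5.34 and 5.20 against 6.13 to 8.26, but overlapped in counts, at 1.119 and 1.095 against 1.100 to 1.410.

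Called gene by gene in TMM-scaled counts, 70 of 77 tested mitochondrial ribosomal protein genes were lower in sorted cells and 1 was higher (median log2 fold change -1.36). Of the initiation factors 22 of 29 were lower and 1 higher, and of the elongation factors 6 of 9 were lower and 1 higher. Of ribosome biogenesis genes 26 of 42 were higher and 8 lower. Among 15 other transcripts with a pyrimidine start, 5 were higher and 4 lower. Of 20 genes that control ribosomal protein synthesis, such as Mtor and Larp1, 7 were higher and 6 lower. Of all genes tested with TMM, 41.8% were higher and 38.5% lower. These calls moved with the measure. In TPM 40 of 78 mitochondrial ribosomal protein genes were higher and 14 lower (67.2% and 15.7% of all genes). Also higher in TPM were 27 of 29 initiation factors, 9 of 9 elongation factors and 41 of 42 biogenesis genes, with none lower. By library total 22 of 77 mitochondrial ribosomal protein genes were higher and 37 lower (65.9% and 22.4% of all genes).

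Several paralogs shifted against their partners between bulk liver and sorted cells. Of 8 pairs, 5 had TPM above 0 in every library, and for these the log2 ratio of paralog to partner was compared between sorted cells and bulk liver with an exact two-sided permutation test over the 91 ways to pick 2 of 14 libraries, whose smallest possible p is 0.01099. Rps27l exceeded Rps27 in bulk liver, with ratios of 2.38 and 2.71, and fell far below it in sorted cells, with ratios of 0.115 to 0.155. The mean log2 ratio differed by -4.27 (exact permutation p 0.01099, or 0.01374 adjusted over the 5 pairs), and 12 of 12 sorted libraries lay below both bulk libraries. Rps27l itself stood at 703 and 668 TPM in bulk liver, the highest of all members there, and at 243, 272 and 375 TPM in sorted cells, where it ranked 58. Its log2 fold change was -3.01 (SE 0.096, edgeR adjusted p 1.11e-15) in counts and -1.28 in TPM. With the TPM of Rps27 and Rps27rt added together, the ratio was 2.28 and 2.56 in bulk liver and 0.0965 to 0.138 in sorted cells.

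Rps4l fell against Rps4x, from ratios of 0.260 and 0.238 to 0.0543 to 0.0803. Rpl36al, an intronless paralog of Rpl36a, fell against it from 4.09 and 3.71 to 1.63 to 2.27, and remained the more abundant of the pair. Rpl22l1 fell against Rpl22 from 1.71 and 2.36 to 0.704 to 1.16. The mean log2 ratios differed by -1.92, -0.96 and -1.25, each with an exact permutation p of 0.01099 (0.01374 adjusted over the 5 pairs) and with 12 of 12 sorted libraries below both bulk libraries. In counts the difference was -1.88 for Rps4l and -0.67 for Rpl22l1, the latter smaller than in TPM. For Rpl36al there was no ratio in counts, as Rpl36a had 7 and 0 counts in the bulk libraries. Every coding 100-base word of Rpl36al and of Rpl36a was found in other genes, so this ratio rests on how TPM were assigned. Rpl7l1, whose product acts in ribosome assembly, did not shift against Rpl7 beyond the spread, with ratios of 0.0825 and 0.0826 in bulk liver and 0.0668 to 0.106 in sorted cells (exact permutation p 0.648). Behind these ratios, Rpl22 rose from 77.3 and 72.7 TPM to 170, 212 and 266 TPM, while Rpl22l1 (132 and 171 TPM against 144, 174 and 308) overlapped between the groups. Rpl36al had 373 and 339 TPM in bulk liver and 267, 300 and 341 TPM in sorted cells, where the highest sorted library exceeded the lower bulk library.

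The remaining paralogs were near the limit of detection. Rpl3l, known from skeletal and heart muscle, had 1 count in the bulk libraries together and 114 in the sorted ones, a ratio of 15.6 per total count (95% counting interval 2.75 to 622). Rpl3l passed the filter on low counts only through the sorted libraries, so its p is no support for a rise. Its edgeR adjusted p of 0.0213 was lost with DESeq2 (0.122) and without bulk replicate 2 (0.189 in edgeR). Rpl3, its partner, stood at 142 and 152 TPM in bulk liver and at 516, 531 and 590 TPM in sorted cells. Rpl10l, known from the testis, had 0 counts in all 14 libraries, which allows up to 0.0231 CPM over their total. Rpl39l, another testis paralog, had 1 count in bulk liver and 10 in sorted cells, and its partner Rpl39, of the exit tunnel, stood at 82.7 and 64.9 TPM against 125, 167 and 204 TPM. These limits and intervals cover counting error only.

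**Figure D3:**
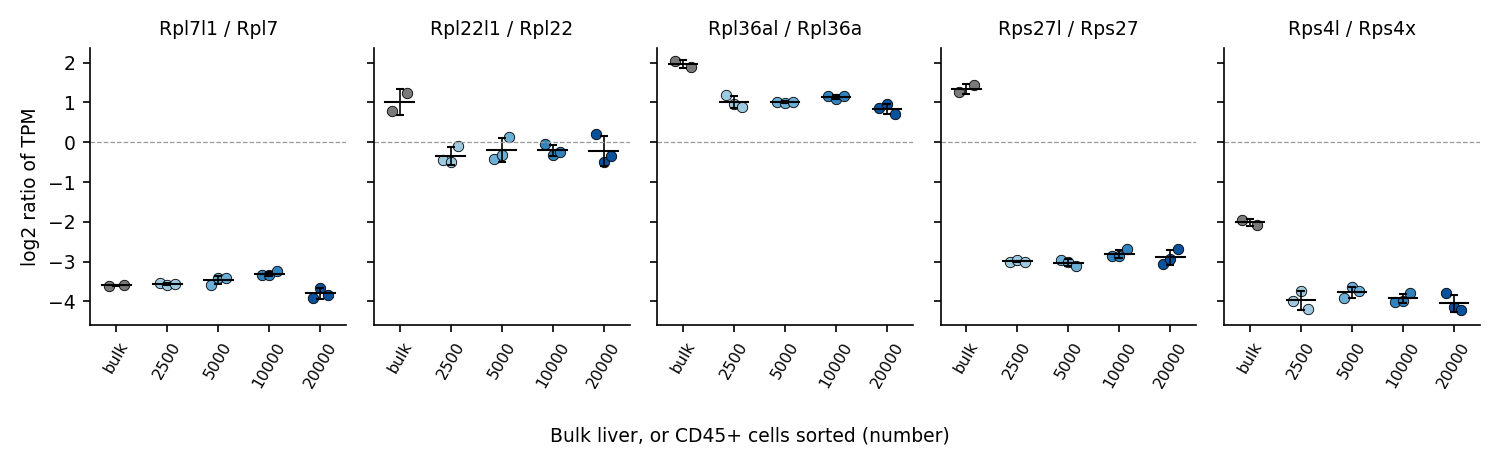
The log2 ratio of paralog to partner in TPM, by library, for the 5 testable pairs, in bulk liver and in CD45+ cells sorted at 4 numbers. Points are libraries, lines are means, bars are SD (n = 2 bulk, n = 3 per sorted group) and the dashed line marks equal TPM; Rps27l to Rps27 crosses it, from ratios of 2.38 and 2.71 in bulk liver to 0.115 to 0.155 in sorted cells.

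The deposited counts and TPM disagreed widely on the level of many members. A member had a median of 8.47 TPM for each CPM by library total (range 0.496 to 608, 90 members with counts), against 0.602 over 13575 genes with at least 1 of each, and 73 of the 90 members lay above the 95th percentile of those genes, 3.54. Short transcripts raise this quantity, since TPM divides by length. Across the 92 members the Spearman correlation of mean CPM and mean TPM was 0.55, against 0.824 across those 13575 genes; genes share libraries and are not independent. In all, 20 members had under 10 CPM and at least 100 TPM on average. Rpl24, a late-joining protein of the large subunit, was the furthest apart. It had 1 count in the bulk libraries together and 84 in the sorted ones, too few to be tested, and 237 and 210 TPM in bulk liver and 356, 423 and 510 TPM in sorted cells. Of its exonic bases 47.0% overlap another annotated gene, Gm28037. Rps29 had 0.263 and 0.498 CPM by library total in bulk liver and 0.975 to 2.26 CPM in sorted cells, but 256 and 285 TPM and 445 to 979 TPM. Rps6, the substrate of the S6 kinases, had 1.58 and 0.996 CPM against 2.91 to 4.96 CPM, but 208 and 185 TPM against 458 to 597 TPM.

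The gap was wider where more of a gene's coding sequence was also found in transcripts of other genes. Each coding sequence was divided into words of 100 bases, and a word was called shared if it occurred in a transcript of another gene. Genes annotated over the same locus, such as Gm28037 at Rpl24, counted as other genes. Overlap at a locus and copies elsewhere were therefore not told apart. Every word was shared for 26 of 85 protein-coding members long enough to have one. These 26 had a median of 5.28 CPM, 291 TPM and 45.7 TPM for each CPM. The 27 members with under 50% of words shared had a median of 104 CPM, 354 TPM and 3.61 TPM for each CPM, and the 32 between them had 40.8 CPM, 360 TPM and 8.45 TPM for each CPM. The fully shared class held 3.84% of the members' summed CPM and 25.6% of their summed TPM. The Spearman correlation of the shared fraction with TPM for each CPM was 0.757 across 89 members, given as a description. How either deposited table treated reads that fit several places is not stated in the sources, and its part in the gap was not tested.

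**Figure D4:**
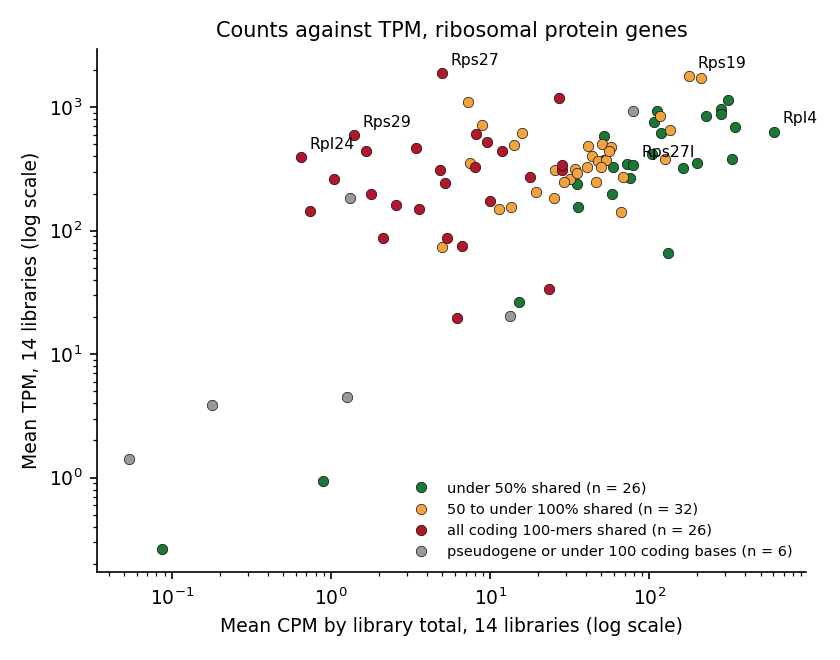
Mean CPM by library total (x axis, log scale) against mean TPM (y axis, log scale) over 14 libraries for the 90 ribosomal protein genes with counts, coloured by the share of coding 100-base words found in other genes. Genes with every word shared (red, n = 26) have a median of 5.28 CPM and 291 TPM; those with under 50% shared (green) reach similar TPM at a median of 104 CPM.

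Fold changes in the 2 units differed more among members whose sequence was shared. For the 77 members with at least 1 CPM and 1 TPM in both groups, the log2 fold of sorted cells over bulk liver was higher in TPM than in CPM by library total by a median of 0.50, the same as the 0.50 over 9651 genes. In the class with under 50% shared this difference had an SD of 0.076 across 24 members and ranged from 0.30 to 0.68. In the fully shared class its SD was 0.79 across 19 members, and it ranged from -1.35 to 1.39. That class also had few counts, with 20 of its 26 members under 10 CPM on average. In the class with under 50% shared this held for 3 of 27. Shared sequence and counting error therefore cannot be told apart here. The members furthest out were Rpl23a (difference 1.39), Rpl15 (1.38), Rpl13a (1.10), Rpl10 (-1.35), Rpl27 (-1.14) and Rpl10a (-1.12), and for each of these at least 97.25% of words were shared. Rpl10, which joins the large subunit late, had 190 and 140 TPM in bulk liver and 150, 170 and 224 TPM in sorted cells. Those groups overlapped, while its CPM by library total, 3.68 and 4.36 against 8.54 to 14.5, did not. Rpl23a had 176 and 183 TPM against 562, 661 and 865 TPM, and Rpl27 had 73.0 and 57.4 TPM against 64.2, 89.9 and 119 TPM.

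The members that failed the filter on low counts were Rpl10l, Rpl24, Rpl39l, Rpl6l, Rps12l1 and Rps3a2, so 86 of 92 were tested in counts and 90 in TPM. Rps12l1, annotated as a pseudogene, matches the coding sequence of Rps12 at all 396 aligned bases, and had 0 counts in every library but 13.1 and 23.0 TPM in bulk liver and 0 to 137 TPM in sorted cells. Rps3a2 matches Rps3a1 at 99.5% of aligned bases. The split of reads between such copies is uncertain in either table.

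Across the 4 inputs few members passed a test. Their summed share of TPM was 4.11 ± 0.19% at 2500 cells, 4.22 ± 0.33% at 5000, 3.89 ± 0.13% at 10000 and 4.61 ± 0.24% at 20000 (SD, n = 3 each). No member passed for a slope against log2 cell number (0.0608% of 14795 genes had a passing positive slope and 0.0203% a negative one), with 6 of 86 at an unadjusted p under 0.05 in edgeR, against 10.7% of all genes, and 0 passing in DESeq2. In TPM none passed either in limma, and no gene of the table did. Between 2500 and 20000 cells no member passed in edgeR, with 21 of 86 at an unadjusted p under 0.05, all lower at 2500 cells, against 13.3% of all genes in either direction. In DESeq2 3 members passed, with no share of all genes computed. Of all genes 0.338% passed in edgeR as lower at 2500 cells and 0.0811% as higher. In TPM no member passed in limma, with 33 of 90 members and 12.5% of all genes at an unadjusted p under 0.05, and 0.0308% of all genes passed as lower. The smallest adjusted p were those of Rpl21, with -0.42 (SE 0.10, 0.0788 in edgeR), and Rps24, with -0.33 (0.0962). Between 5000 and 20000 cells no member passed in edgeR or in DESeq2, with 14 of 86 members and 8.13% of all genes at an unadjusted p under 0.05, and 0.0879% of all genes passed as lower. In TPM none passed in limma, with 28 of 90 members and 7.45% of all genes at an unadjusted p under 0.05, and 0.0123% of all genes passed as lower.

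Between 10000 and 20000 cells 8 of 86 members were lower at 10000 cells and none higher (0.291% and 0.0135% of 14795 genes), and the median log2 difference was -0.28 for members and 0.01 for all genes. The 6 with the smallest p were Rps24, Rpl22, Rpl39, Rps20, Rpl7 and Rps3. An unadjusted p under 0.05 was found for 46 of 86 members, all lower at 10000 cells, and for 10.2% of all genes. Rps24, mutated in some families with Diamond-Blackfan anaemia, had 84.2, 87.8 and 76.8 TMM-scaled CPM at 10000 cells and 128, 107 and 125 at 20000, and the groups did not overlap. Its log2 difference was -0.52 (SE 0.086, edgeR adjusted p 0.00962). At 2500 and 5000 cells its means lay between, with libraries at 100, 87.5 and 96.5 and at 106, 94.6 and 97.0. It was also the only member that passed for any difference among inputs (edgeR adjusted p 0.0408; 0.297% of all genes passed), a call lost without any library of 5000 or 10000 cells and without 20000-cell replicate 1 or 3 (adjusted p 0.0573 to 0.265 in edgeR).

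Rpl22 had 46.5, 48.8 and 44.1 TMM-scaled CPM at 10000 cells and 70.9, 64.5 and 65.7 at 20000, a log2 difference of -0.52 (SE 0.088, edgeR adjusted p 0.0144). It was the 1 member that also passed between these inputs in TPM, with 190, 198 and 170 TPM against 266, 262 and 253 TPM (-0.49, SE 0.064, limma adjusted p 0.0192; 0.0185% of all genes passed as lower and 0.00616% as higher). Rps20, of the small subunit's head, differed by -0.55 and Rpl39 by -0.60. Rps3, at the mRNA entry channel, differed by -0.28, with 290, 291 and 274 against 352, 347 and 346. Rpl7 differed by -0.35.

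These counts of calls moved with single libraries. The count of 8 became 0 without 10000-cell replicate 1, 2 without replicate 2 and 0 without replicate 3, and 2, 1 and 0 without 20000-cell replicates 1, 2 and 3. It was 5 to 14 when a library of 2500 or 5000 cells was left out and 3 with library totals, and DESeq2 called 22. Shares of all genes called in these settings were not computed, so these counts cannot be set against a background. The direction was shared more widely than the calls. Of 90 members tested in TPM, 57 had an unadjusted limma p under 0.05 between 10000 and 20000 cells, against 14.6% of all genes. Among these members 56 were lower at 10000 cells. The 5 neutrophil markers, led by S100a8, summed to 2202, 2210 and 1786 TPM at 10000 cells and to 4013, 3678 and 3072 TPM at 20000, with none at 0. The 5 Kupffer cell markers summed to 302, 412 and 291 TPM at 10000 cells and 219, 232 and 216 TPM at 20000, and the 5 B cell markers to 6674, 6279 and 6774 and to 5977, 5906 and 5811. The part of these differences in the ribosomal protein results was not tested.

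**Figure D5:**
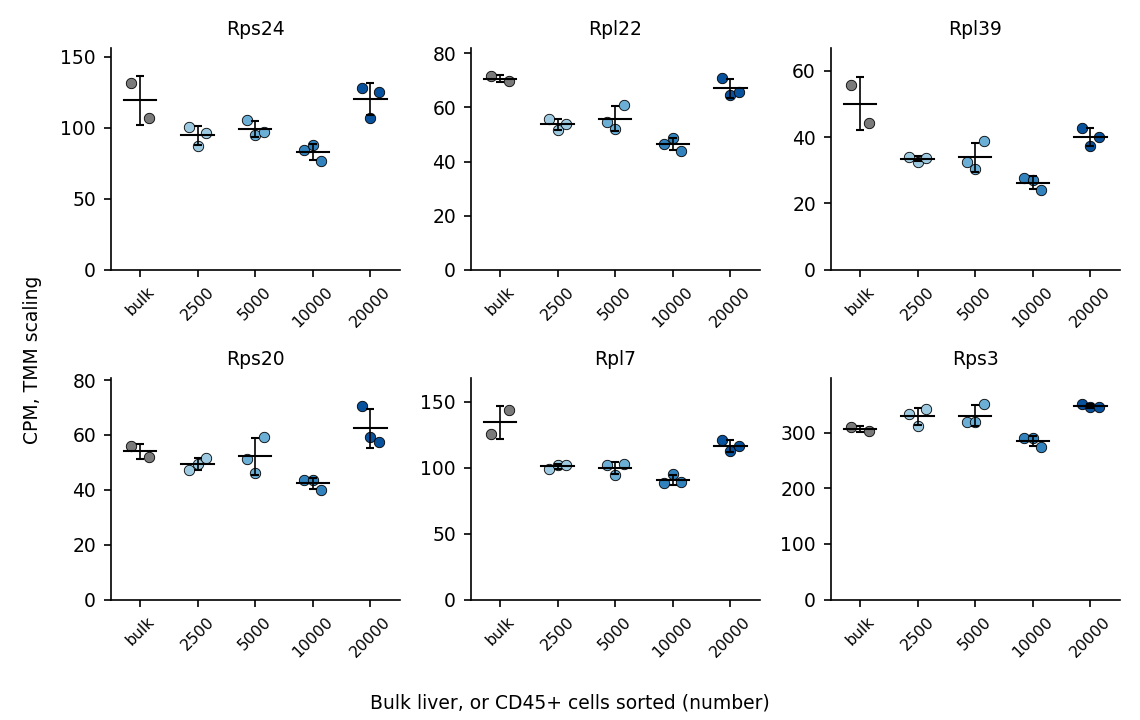
TMM-scaled CPM by library for the 6 ribosomal protein genes with the smallest p among those called lower at 10000 than at 20000 cells. Points are libraries, lines are means and bars are SD (n = 2 bulk, n = 3 per sorted group); for Rps24 the 10000-cell libraries lie at 76.8 to 87.8 and the 20000-cell ones at 107 to 128, with the means of the lower inputs between.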

How the data were processed

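The authors deposited tables of raw counts and of TPM values over 48794 genes for 14 libraries, with no pooling. A deposited table of variance-stabilised values was not used. The submitters' processing notes list GRCm38 and the tools featureCounts 1.5.1, RSEM 1.3.0 and STAR 2.5.2b, besides DESeq2 1.34.0 and FastQC 0.11.5. What each tool did, the annotation release, filters and strand setting are not given in the sources used here. Overlapping and antisense genes are therefore uncertain. Per the labels' protocols, column-purified total RNA was amplified with SMART-seq v4 and tagmented.

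Counts were tested with edgeR 4.0.16 (R 4.3.3; quasi-likelihood F test, robust, TMM factors, filterByExpr), comparing the average of the 4 sorted groups with bulk liver and, over the 12 sorted libraries, testing inputs. TPM were tested with limma 3.58.1 (trend, robust) on log2(TPM + 1), for genes with at least 1 TPM in 2 libraries. Benjamini-Hochberg adjustment ran over all genes, with a threshold of 0.05. The scripts were tested on simulated data. Gene IDs matched symbols for 48348 rows and 446 had none. Gene coordinates and coding sequences come from GENCODE M21. Named members were the 6 with the highest TPM in sorted cells, the 6 highest and 6 lowest passing fold changes, all paralog pairs, passing members of each input comparison (at most 6, or else the 3 with the smallest p), the 6 with the widest gap between TPM and count folds, and those not tested. Some members that this rule picks are not reported here. Other members named, such as Rps27rt, Rps29, Rps6 and the stalk proteins, were added after their values were seen. Members, lists and tests were chosen with earlier results of these data known. Alternatives are given in the closing section.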

Additional observations from a re-analysis of the deposited data

How the results depend on the processing

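Sorted cells against bulk liver, called in counts with TMM, gave 16 members higher and 35 lower. With library totals this became 74 and 4, and in the deposited TPM 82 and 3. The lower count was 22 with no filter on low counts, which tests more genes, and 23 with the 20000-cell libraries alone. With RLE factors, TMM factors computed without the members, DESeq2, and the 2500-cell libraries alone both counts stayed within 1.5 times. Leaving out each library in turn gave 13 to 17 higher and 26 to 40 lower in counts, and 80 to 84 higher and 2 to 3 lower in TPM.

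Relative to TMM, 48 of 86 members changed sign with library totals and 50 in TPM. Among the members named by rule, those that did so with library totals were Rpl13a (1.05), Rpl7a (0.05), Rpl7l1 (0.79), Rpl7 (0.80), Rpl22l1 (0.18), Rpl22 (0.85), Rpl36a (0.73), Rpl39 (0.61), Rps4x (0.76) and Rpl23a (0.53). In TPM those named by rule were Rpl13a (2.15), Rpl15 (1.00), Rpl35a (0.39), Rpl7a (0.52), Rpl7l1 (1.27), Rpl7 (1.23), Rpl22l1 (0.28), Rpl22 (1.52), Rpl36a (0.72), Rpl39 (1.18), Rps4x (1.33) and Rpl23a (1.91). Rpl13a gave 0.03 with no filter and 0.12 without bulk replicate 2, against -0.27 without bulk replicate 1. Rpl36a gave 0.03 with the 20000-cell libraries alone and 5.81 without bulk replicate 1, where its lone bulk library holds 0 counts, against -1.39 without bulk replicate 2. The cause of the other changes was not tested.

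For any input difference, 1 member passed, against 2 with RLE, 2 with TMM factors computed without the members, 0 with library totals, 15 with no filter and 17 with DESeq2. Between 2500 and 20000 cells 0 passed, against 4 with no filter and 3 with DESeq2. Between 10000 and 20000 cells 8 passed, against 3 with library totals, 22 with no filter and 22 with DESeq2. Shares of all genes called in these other settings were not computed, so the larger counts are not shown to be about the members. In TPM 1 passed, against 2 with a pseudocount of 0.1. Leaving out each sorted library in turn gave 0 to 14 members between 10000 and 20000 cells in counts, 0 to 3 in TPM, 0 to 2 for any input difference, and 0 in the other input comparisons.

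With the replicate number as a block, 15 members were higher and 37 lower in counts and 7 passed between 10000 and 20000 cells, while in TPM 0 passed there. Libraries with the same number did not deviate together (r from -0.086 to 0.107 over 26 pairs), so the numbers were not used as pairs.

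The summed share in bulk liver was 0.321% of counts and 1.54% of TPM with mitochondrially encoded genes left out of the total, and 0.275% and 1.34% without the paralogs and Rps19bp1; in sorted cells it moved by less than 1 SD. In counts the log2 ratio of Rpl7l1 to Rpl7 differed by -0.02, against 0.07 in TPM. That of Rps27l to Rps27 differed by -4.85 in counts, against -4.27 in TPM. The paralog ratios in counts and the TPM comparison of 10000 with 20000 cells were added after the data were seen. Counts limit what can be said of Rps27, Rps29, Rpl24 and the other members under 10 CPM.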
